A study of Homo sapiens with 12 samples.

Results

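The matrix metalloproteases MMP1, MMP2, MMP3, MMP9, MMP10, MMP13 and MMP14, the secreted protease ADAMTS1 and the tissue inhibitors TIMP1 and TIMP3 were chosen by gene symbol from a table of counts per gene. Of these 10 genes 9 were analysed, out of 25049 genes in the table, and all 9 passed the filter on low counts that left 21974 genes for testing. MMP2 was not analysed here. RNA had been sequenced from 12 samples of MDA-MB-231b, a bone-tropic derivative of the human triple-negative breast cancer line MDA-MB-231 recovered from bone marrow after injection into athymic nude mice. The 4 groups, with 3 samples each, were GLI2 KO cells in 50 nM paclitaxel, WT cells in 50 nM paclitaxel, GLI2 KO cells in DMSO and WT cells in DMSO, each kept in culture for 2 days of treatment. All cells carried a lentiviral CRISPR-Cas9 system, with a guide RNA against GLI2 in the KO cells and, per the series design text, a non-targeted guide as control. The sources used here do not say whether the KO cells were 1 clone or a pool. Paclitaxel is a taxane that stabilises microtubules, and GLI2 is a zinc-finger transcription factor at the end of Hedgehog signalling.

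Matrix metalloproteases are zinc enzymes that are made as inactive precursors and, once cleaved, cut collagens and other proteins of the extracellular matrix. TIMPs bind the active enzymes and block them, and ADAMTS proteases cut matrix proteoglycans and are themselves held back by TIMP3. In breast cancer that has spread to bone, tumour-derived metalloproteases are known for releasing matrix-bound growth factors and for their part in bone loss.

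Totals ran from 83230948 to 109018776 counts per sample, so that 3 counts in a sample equalled 0.0275 to 0.0360 CPM (TMM-scaled counts relative to library size). Intervals and floors given here are for counting error only. Replicates of a group differed by a chi-square per degree of freedom of 2.90 to 17.9. GLI2 KO DMSO replicate 3, GLI2 KO paclitaxel replicate 3 and WT DMSO replicate 2 stood furthest from their groups, and results that change without them are given with both values. Nothing in the labels says that replicates came from separate cultures, so p-values cover the spread between these samples alone, and that spread may be technical. The GLI2 transcript was still present in the cells labelled GLI2 KO, at 4.16 ± 0.211 CPM against 5.68 ± 0.722 CPM in WT cells in paclitaxel, and at 9.20 ± 0.924 CPM against 10.8 ± 0.536 CPM in WT cells in DMSO (SD, n = 3 each). RNA levels leave the state of the GLI2 protein unmeasured. The summed level of 5 markers of the line (VIM, CD44, MSN, CAV1 and AXL) was lower in all paclitaxel samples than in all DMSO samples. It was 4274 to 4607 CPM in GLI2 KO cells and 4670 to 4705 CPM in WT cells in paclitaxel. In DMSO it was 5812 to 6175 CPM in GLI2 KO cells and 5979 to 6105 CPM in WT cells.

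4 of the members lie together on chromosome 11, within 185.2 kb from 102770503 to 102955734 (GENCODE 29, GRCh38), in the order MMP10, MMP1, MMP3, MMP13, all on the minus strand. A RefSeq table of sequences before gene starts (GRCh38.p14) matched 4 of the 10 members, namely MMP10, MMP14, TIMP1 and TIMP3. The MMP10 promoter is shown because it is the member of the chromosome 11 group with a sequence, and a stretch before TIMP1 because it carries a different AP-1-like motif. Each is written 5′ to 3′ on the gene's own strand. The MMP10 sequence covers the 250 bases before the start, chr11:102780629-102780878 on the minus strand, and its capitals mark TGAATCA, 67 to 61 bases before the start, and TATAAA, 31 to 26 bases before it. The TIMP1 sequence covers 30 bases, chrX:47582324-47582353 on the plus strand, and its capitals mark TGAGTAA, 101 to 95 bases before the RefSeq start. The GENCODE annotation places this stretch inside a longer first exon.
MMP10: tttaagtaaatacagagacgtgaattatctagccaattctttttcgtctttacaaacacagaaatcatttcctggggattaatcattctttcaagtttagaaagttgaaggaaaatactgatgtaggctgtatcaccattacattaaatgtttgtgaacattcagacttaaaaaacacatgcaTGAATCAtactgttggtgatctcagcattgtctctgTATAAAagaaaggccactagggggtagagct
TIMP1: tggtgggtggaTGAGTAAtgcatccaggaa

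The letters TGANTCA, where N is any base, take in the sites bound by AP-1 dimers of FOS and JUN proteins along with other forms. They occur on either strand in the 250 bases before the start of 6.57% of 35116 promoters, and TATAAA occurs in 10.7%. TGAGTAA occurs in 2.21%. MMP10 held the first of these, with A at N, and the second. TIMP1 held TGAGTAA and 1 copy of the ETS-type core AGGAAG (28.7% of promoters), and MMP14 and TIMP3 held none of these 4. The GC-rich motif GGGCGG, found in 42.6% of promoters, was present once before MMP14, in 2 copies before TIMP1 and in 5 before TIMP3. GACCACCCA, the sequence known to be bound by GLI proteins, occurs in 0.199% of promoters and was not among these letters in the windows of the 4 genes. Such matches describe the letters and are not evidence of binding.

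The members fell into abundant and scarce transcripts. Per kilobase of annotated exon, WT cells in DMSO held 33.3 CPM of TIMP3, 27.5 CPM of TIMP1, 13.5 CPM of MMP14 and 4.65 CPM of ADAMTS1, and the samples of each of these genes did not overlap those of the next. The other 5 were at 0.0473 CPM per kilobase (MMP1) or below in that group. TIMP3, TIMP1, MMP14, ADAMTS1 was the order in 3 of the groups, while in GLI2 KO cells in DMSO TIMP1 (35.9 CPM per kilobase) stood above TIMP3 (32.0 CPM per kilobase), again with no overlap between their samples. MMP1 led the scarce members in every group, at 1.79 CPM per kilobase in GLI2 KO cells in paclitaxel, 0.325 in WT cells in paclitaxel, 0.426 in GLI2 KO cells in DMSO and 0.0473 in WT cells in DMSO. Its samples overlapped those of MMP13 in both WT groups and those of MMP3 in GLI2 KO cells in DMSO, so the order of these neighbours is not fixed beyond their spread. In GLI2 KO cells in paclitaxel MMP1 was above MMP3 in every sample, and MMP3 overlapped MMP13 (0.830 and 0.726 CPM per kilobase).

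**Figure D1:**
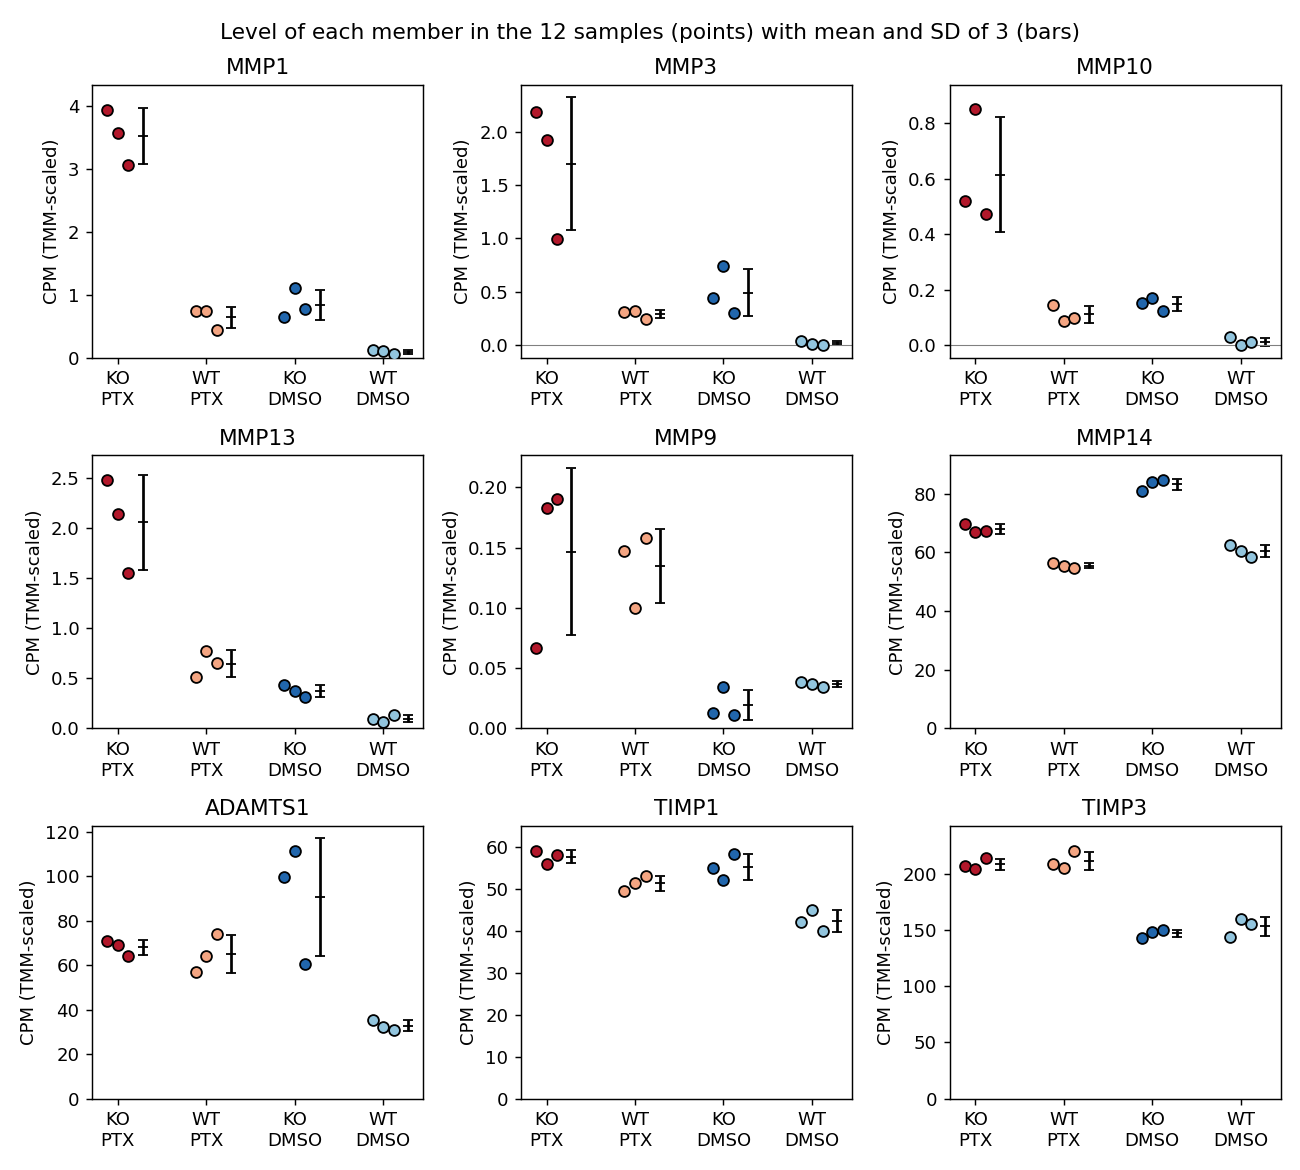
Level of each of the 9 members in CPM (vertical axis, linear scale) in GLI2 KO and WT cells in paclitaxel and in DMSO, with 1 point per sample, a bar at the mean and an error bar of 1 SD (n = 3). MMP1, MMP3, MMP10 and MMP13 are highest in GLI2 KO cells in paclitaxel and lowest in WT cells in DMSO, TIMP3 is parted by treatment with overlapping genotypes, and MMP14 is higher in GLI2 KO than in WT cells under both treatments.

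The comparison of GLI2 KO with WT cells describes how these genes differed between the cells so labelled. All WT samples carried library numbers from 1 to 6 and all GLI2 KO samples numbers from 7 to 12. The labels do not say what these numbers stand for. An effect of GLI2 targeting therefore cannot be told apart from anything else that went with this order. Of the 9 members, 7 were higher in GLI2 KO cells than in WT cells in DMSO and none lower (edgeR, adjusted p below 0.05), where 41.6% of all genes tested passed in either direction, 22.0% higher and 19.6% lower. In paclitaxel 6 were higher and none lower, where 45.6% of all genes passed, 23.4% higher and 22.2% lower. The median log2 fold change of the members was 1.46 in DMSO and 0.29 in paclitaxel, against 0.01 and -0.01 over all genes tested. The same members passed in both, except ADAMTS1, which passed in DMSO only. MMP9 and TIMP3 passed in neither. The same 7 members in DMSO and 6 in paclitaxel were those whose GLI2 KO and WT samples did not overlap, which held for 48.6% of all genes in DMSO and 55.2% in paclitaxel.

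The largest genotype differences were those of the 4 genes on chromosome 11. MMP1, an interstitial collagenase that opens the triple helix of fibrillar collagens (chromosome 11, 102789920 to 102798160), had 356, 331 and 338 counts in GLI2 KO cells in paclitaxel, against 65, 67 and 45 counts in WT cells in paclitaxel. In DMSO it had 50, 98 and 69 counts in GLI2 KO cells, against 13, 8 and 5 counts in WT cells. The GLI2 KO samples lay above the WT samples under both treatments with no overlap. MMP1 was 3.52 ± 0.442 CPM in GLI2 KO cells against 0.640 ± 0.170 CPM in WT cells in paclitaxel, or 2.47 ± 0.19 as a log2 fold change (edgeR adjusted p = 2.32e-10), and 0.840 ± 0.244 CPM in GLI2 KO cells against 0.0932 ± 0.0348 CPM in WT cells in DMSO, or 3.14 ± 0.32 as a log2 fold change (edgeR adjusted p = 2.63e-08). Here and below ± after a CPM is the SD of 3 samples and after a log2 fold change an approximate standard error. In bulk RNA a larger share of cells that express a gene and more RNA per cell cannot be told apart.

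MMP3, a stromelysin that cuts proteoglycans and laminin and activates other proenzymes (102835801 to 102843803), had 197, 178 and 110 counts in GLI2 KO cells in paclitaxel, against 27, 29 and 25 in WT cells in paclitaxel. In DMSO the GLI2 KO samples had 34, 65 and 27 counts and the WT samples 4, 1 and 0. Every GLI2 KO sample was above every WT sample of the same treatment, and WT cells in DMSO were at about the floor of 3 counts. The log2 fold change of GLI2 KO over WT cells was 2.53 ± 0.36 in paclitaxel (edgeR adjusted p = 4.58e-05) and 4.65 ± 0.73 in DMSO (edgeR adjusted p = 0.000128). With only 5 counts in all of WT DMSO, the ratio of summed counts per total in DMSO was 26.5, with an exact 95% binomial interval of 11.04 to 82.9.

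MMP10, a second stromelysin (102770503 to 102780628), had 47, 79 and 52 counts in GLI2 KO cells in paclitaxel, against 13, 8 and 10 in WT cells in paclitaxel. In DMSO the counts were 12, 15 and 11 in GLI2 KO cells and 3, 0 and 1 in WT cells. The groups did not overlap under either treatment. Its log2 fold change was 2.45 ± 0.34 in paclitaxel (edgeR adjusted p = 1.34e-06) and 3.23 ± 0.63 in DMSO (edgeR adjusted p = 0.000153). The ratio of summed counts in DMSO was 9.97 (exact 95% interval 3.59 to 38.5).

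MMP13, a collagenase that bone and cartilage cells make (102942995 to 102955734), had 224, 199 and 171 counts in GLI2 KO cells in paclitaxel, against 45, 70 and 66 in WT cells in paclitaxel. In DMSO it had 34, 33 and 28 counts in GLI2 KO cells, against 9, 5 and 12 in WT cells. Again no sample overlapped between the genotypes. Its log2 fold change was the smallest of the 4, at 1.66 ± 0.19 in paclitaxel (edgeR adjusted p = 6.27e-08) and 1.95 ± 0.35 in DMSO (edgeR adjusted p = 4.57e-05).

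MMP14, a membrane-anchored protease that activates other metalloproteases at the cell surface (chromosome 14, 22836557 to 22849027, plus strand), was higher in GLI2 KO cells by a much smaller amount. It had 69.8, 66.9 and 67.3 CPM in GLI2 KO cells in paclitaxel, against 56.3, 55.3 and 54.6 CPM in WT cells in paclitaxel. In DMSO it had 81.1, 84.1 and 84.7 CPM in GLI2 KO cells, against 62.6, 60.4 and 58.4 CPM in WT cells. The groups did not overlap, and the GLI2 KO level was higher by 22.7% in paclitaxel (log2 fold change 0.29 ± 0.03, edgeR adjusted p = 5.19e-08) and by 37.8% in DMSO (0.46 ± 0.03, edgeR adjusted p = 1.32e-11).

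ADAMTS1, which cuts the proteoglycans aggrecan and versican (chromosome 21, 26835747 to 26845409, minus strand), differed between the genotypes in DMSO but not detectably in paclitaxel. In paclitaxel it had 70.9, 69.1 and 64.3 CPM in GLI2 KO cells, against 57.0, 64.4 and 74.0 CPM in WT cells, and the groups overlapped (log2 fold change 0.06 ± 0.20, edgeR adjusted p = 0.837). In DMSO it had 99.8, 112 and 60.8 CPM in GLI2 KO cells, against 35.4, 32.4 and 30.8 CPM in WT cells. The GLI2 KO samples were all above the WT samples in DMSO, although replicate 3 was close to the level of both paclitaxel groups. The log2 fold change in DMSO was 1.46 ± 0.21 (edgeR adjusted p = 0.000517) and ranged from 1.29 to 1.69 with each of the 12 samples left out in turn.

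The inhibitors differed less. TIMP1 (chromosome X, 47582313 to 47586789, plus strand) had 59.2, 56.0 and 58.1 CPM in GLI2 KO cells in paclitaxel, against 49.7, 51.4 and 53.2 CPM in WT cells in paclitaxel. In DMSO it had 55.1, 52.3 and 58.4 CPM in GLI2 KO cells, against 42.2, 45.1 and 40.0 CPM in WT cells. The genotypes did not overlap, with a GLI2 KO level higher by 12.4% in paclitaxel (log2 fold change 0.17 ± 0.04, edgeR adjusted p = 0.00256) and by 30.3% in DMSO (0.38 ± 0.04, edgeR adjusted p = 1.23e-07). TIMP3, the inhibitor that binds to the matrix (chromosome 22, 32801701 to 32863043, plus strand), had 207, 205 and 214 CPM in GLI2 KO cells in paclitaxel, against 209, 206 and 221 CPM in WT cells in paclitaxel. In DMSO TIMP3 had 143, 148 and 150 CPM in GLI2 KO cells, against 144, 160 and 156 CPM in WT cells. Its genotypes overlapped under both treatments, at -0.02 ± 0.04 in paclitaxel (edgeR adjusted p = 0.654) and -0.06 ± 0.04 in DMSO (edgeR adjusted p = 0.216). Without WT DMSO replicate 1 the DMSO difference of TIMP3 passed, at -0.10 (edgeR adjusted p = 0.0377).

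MMP9, a gelatinase best known from neutrophils, macrophages and osteoclasts (chromosome 20, 46008908 to 46016561, plus strand), was close to the detection limit in every group. It had 6, 17 and 21 counts in GLI2 KO cells in paclitaxel, against 13, 9 and 16 in WT cells in paclitaxel, and 1, 3 and 1 counts in GLI2 KO cells in DMSO, against 4, 3 and 3 in WT cells in DMSO. Neither genotype difference passed (log2 fold change 0.13 ± 0.41, edgeR adjusted p = 0.823 in paclitaxel, and -0.86 ± 0.80, edgeR adjusted p = 0.428 in DMSO). In DMSO the ratio of summed counts was 0.525, with an exact 95% interval of 0.141 to 1.69, so differences of that size in either direction were not detectable at this depth. The antisense gene SLC12A5-AS1 shares 18.4% of the exon bases of MMP9. Its summed counts were 39 in GLI2 KO cells in paclitaxel, 25 in WT cells in paclitaxel, 28 in GLI2 KO cells in DMSO and 17 in WT cells in DMSO, and as the use of strand is not stated, the counts of the pair cannot be told apart.

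**Figure D2:**
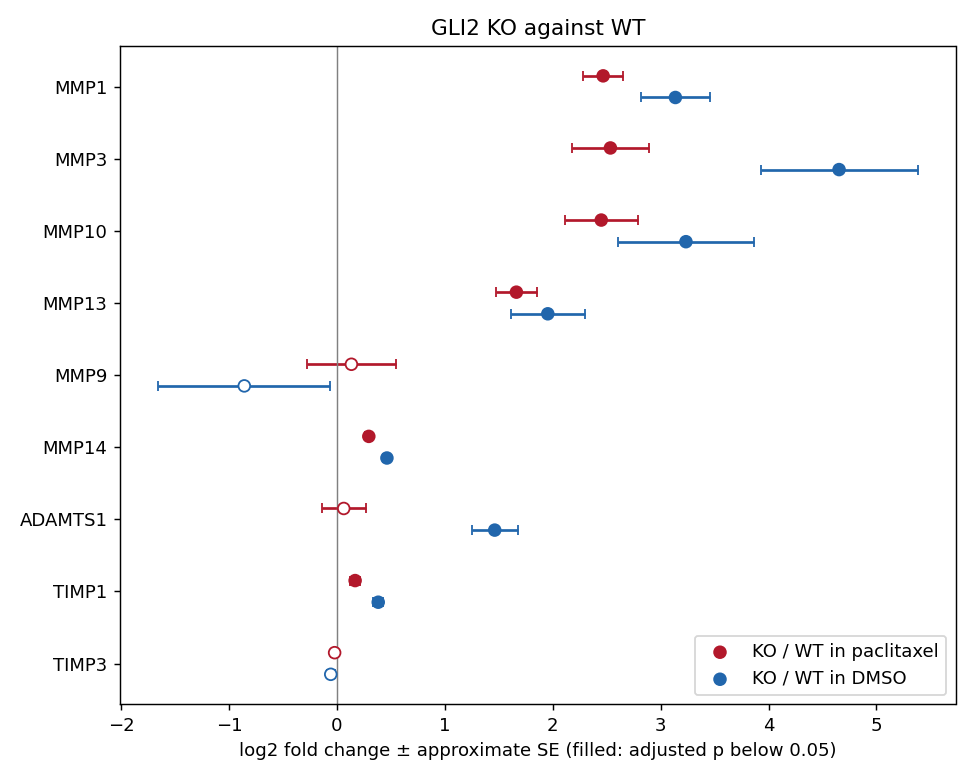
Log2 fold change of GLI2 KO over WT cells for each member in paclitaxel and in DMSO (horizontal axis), with bars of 1 standard error, filled points for adjusted p below 0.05 and open points for the rest. MMP1, MMP3, MMP10 and MMP13 lie between 1.66 and 4.65, MMP14 and TIMP1 between 0.17 and 0.46, and TIMP3 and MMP9 have open points under both treatments.

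Paclitaxel is the treatment named in the title of the series, and its effect was measured within each genotype. The paclitaxel and genotype comparisons share samples in pairs, so their values are set side by side here and are not independent. In WT cells all 9 members passed, 8 higher and 1 lower in paclitaxel, where 66.7% of all genes passed, 34.6% higher and 32.1% lower. In GLI2 KO cells 7 members passed, 6 higher and 1 lower, where 65.2% of all genes passed, 33.0% higher and 32.2% lower. The samples of the 2 treatments did not overlap for 9 members in WT cells and 7 in GLI2 KO cells, and for 71.5% and 67.2% of all genes, so a call or a lack of overlap was common for any gene. The median log2 fold change of the members was 1.85 in WT cells and 1.78 in GLI2 KO cells, against 0.03 and 0.02 over all genes tested.

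The 5 scarce proteases rose in paclitaxel in both genotypes, and in each case the paclitaxel samples were all above the DMSO samples of the same genotype. Paclitaxel samples had counts for 24923 to 24985 genes each, and DMSO samples for 23712 to 24125. The sparse haematopoietic and endothelial markers described below had median log2 fold changes of 0.80 and 0.94 in GLI2 KO cells and 1.37 and 1.18 in WT cells. A rise in paclitaxel was thus not particular to these proteases. From the counts given above, the log2 fold change of MMP1 was 2.06 ± 0.18 in GLI2 KO cells (edgeR adjusted p = 1.34e-09) and 2.73 ± 0.33 in WT cells. MMP13 rose by 2.46 ± 0.21 on the log2 scale in GLI2 KO cells (edgeR adjusted p = 1.98e-10) and by 2.75 ± 0.31 in WT cells (edgeR adjusted p = 2.57e-08). MMP13 therefore differed more by treatment than by genotype, as point values, while MMP1 differed somewhat more by genotype. MMP10 rose by 2.03 ± 0.33 in GLI2 KO cells (edgeR adjusted p = 6.51e-06) and by 2.82 ± 0.66 in WT cells (edgeR adjusted p = 0.00059). MMP3 rose by 1.78 ± 0.33 in GLI2 KO cells (edgeR adjusted p = 0.000336) and by 3.89 ± 0.80 in WT cells (edgeR adjusted p = 0.000706). In WT cells the MMP3 and MMP10 values rest on 5 and 4 counts in DMSO, and the ratios of summed counts were 17.7 (exact 95% interval 7.27 to 55.9) and 8.45 (2.99 to 32.9). MMP9 rose by 2.85 ± 0.61 in GLI2 KO cells (edgeR adjusted p = 0.000241) and by 1.85 ± 0.54 in WT cells (edgeR adjusted p = 0.00409). Its count ratios were 8.69 (3.46 to 28.1) in GLI2 KO cells and 4.14 (2.03 to 9.32) in WT cells.

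Summed over MMP1, MMP3, MMP10 and MMP13, the samples held 824, 787 and 671 counts in GLI2 KO cells in paclitaxel, 150, 174 and 146 in WT cells in paclitaxel, 130, 211 and 135 in GLI2 KO cells in DMSO and 29, 14 and 18 in WT cells in DMSO. The summed level was similar in GLI2 KO cells in DMSO (1.85 ± 0.475 CPM) and WT cells in paclitaxel (1.69 ± 0.245 CPM), and the samples of these groups overlapped. The single genes went different ways between these 2 groups. MMP13 was lower in GLI2 KO cells in DMSO (0.374 ± 0.0624 CPM) than in WT cells in paclitaxel (0.645 ± 0.134 CPM), with no overlap. The means of MMP1, MMP3 and MMP10 were higher in GLI2 KO cells in DMSO, with overlapping samples. In GLI2 KO cells in paclitaxel the summed level was 7.90 ± 1.61 CPM, against 0.218 ± 0.0560 CPM in WT cells in DMSO. As a description without a test, the mean CPM of GLI2 KO cells in paclitaxel over that of WT cells in DMSO was 37.8 for MMP1, 21.8 for MMP13 and 4.03 for MMP9. For MMP3 and MMP10, with 5 and 4 counts in WT DMSO, the corresponding count ratios were 101 (exact 95% interval 42.8 to 311) and 46.1 (17.7 to 171).

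Among the abundant members, TIMP3 rose in paclitaxel by 41.8% in GLI2 KO cells (log2 fold change 0.50 ± 0.04, edgeR adjusted p = 7.8e-12) and by 38.3% in WT cells (0.47 ± 0.04, edgeR adjusted p = 2.97e-11). Its 6 paclitaxel samples, from 205 to 221 CPM, lay above its 6 DMSO samples, from 143 to 160 CPM. MMP14 fell in paclitaxel by 18.4% in GLI2 KO cells (log2 fold change -0.29 ± 0.03, edgeR adjusted p = 2.33e-08). In WT cells its log2 fold change was -0.13 ± 0.03 (edgeR adjusted p = 0.00185), but 0.0075 with upper-quartile factors (edgeR adjusted p = 0.852) and 0.031 with library totals (edgeR adjusted p = 0.415), so its direction in WT cells depends on the scaling. These scalings moved the median of all genes by 0.13 and 0.16 in WT cells and by 0.12 and 0.18 in GLI2 KO cells, relative to the trimmed-mean scaling used here.

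TIMP1 and ADAMTS1 rose in paclitaxel in WT cells, with log2 fold changes of 0.28 ± 0.04 (edgeR adjusted p = 6.44e-06) and 0.99 ± 0.21 (edgeR adjusted p = 0.00304). For ADAMTS1 this was close to a doubling, with 65.1 ± 8.51 CPM in WT cells in paclitaxel and 32.9 ± 2.31 CPM in WT cells in DMSO. In GLI2 KO cells the log2 fold change of TIMP1 was 0.06 ± 0.04 (edgeR adjusted p = 0.2). It passed without GLI2 KO DMSO replicate 3 (0.10, edgeR adjusted p = 0.0419) and with other scalings (0.19 with upper-quartile factors, edgeR adjusted p = 0.00139, and 0.24 with library totals, edgeR adjusted p = 5.34e-05). The log2 fold change of ADAMTS1 in GLI2 KO cells was -0.41 ± 0.20 (edgeR adjusted p = 0.107), and -0.64 without GLI2 KO DMSO replicate 3 (edgeR adjusted p = 0.0013). The same -0.41 passed in edgeR without robust dispersion (adjusted p = 0.0117), so the missing call depends on that choice.

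**Figure D3:**
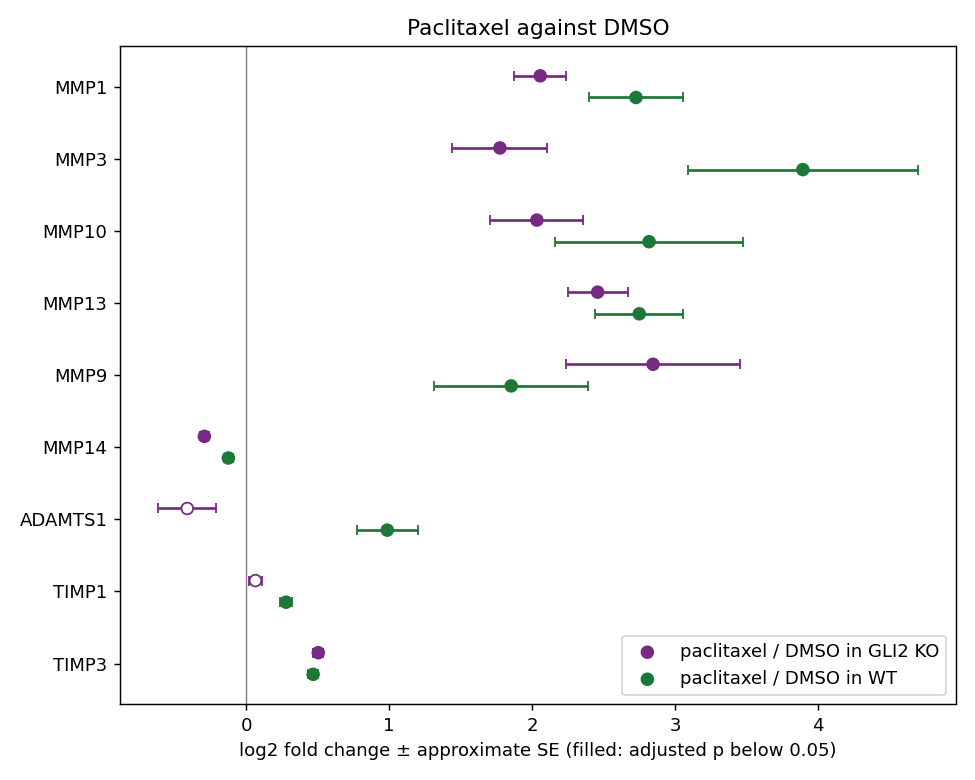
Log2 fold change of paclitaxel over DMSO for each member in GLI2 KO and in WT cells (horizontal axis), with bars of 1 standard error, filled points for adjusted p below 0.05 and open points for the rest. MMP1, MMP3, MMP9, MMP10 and MMP13 lie between 1.78 and 3.89, TIMP3 at 0.47 and 0.50, and ADAMTS1 and TIMP1 have filled points in WT cells and open ones in GLI2 KO cells, while the MMP14 point in WT cells changes sign with upper-quartile factors and library totals.

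Whether the paclitaxel effect differed between the genotypes was tested as the difference of the log2 fold changes, GLI2 KO minus WT. Of the 9 members 3 passed, all with a lower value in GLI2 KO cells, where 13.5% of all genes passed, 6.56% with a higher and 6.93% with a lower value. For ADAMTS1 the difference was -1.40 ± 0.29 (edgeR adjusted p = 0.017), from -0.41 in GLI2 KO cells and 0.99 in WT cells. For TIMP1 it was -0.21 ± 0.06 (edgeR adjusted p = 0.0227), from 0.06 in GLI2 KO cells and 0.28 in WT cells. For MMP14 it was -0.17 ± 0.05 (edgeR adjusted p = 0.0177), from -0.29 in GLI2 KO cells and -0.13 in WT cells. All 3 differences kept their sign and passed with each other scaling. The ADAMTS1 difference ranged from -1.62 to -1.22 with single samples left out and passed each time. The MMP14 difference did not pass without GLI2 KO paclitaxel replicate 2 (-0.16, edgeR adjusted p = 0.0552) or WT DMSO replicate 3 (-0.15, edgeR adjusted p = 0.0625). The TIMP1 difference did not pass without GLI2 KO paclitaxel replicate 2 (-0.19, edgeR adjusted p = 0.0678), WT paclitaxel replicate 3 (-0.19, edgeR adjusted p = 0.072), WT DMSO replicate 1 (-0.21, edgeR adjusted p = 0.0524) or WT DMSO replicate 3 (-0.18, edgeR adjusted p = 0.0776).

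For the 4 genes on chromosome 11 the difference did not pass, at -0.67 ± 0.41 for MMP1 (edgeR adjusted p = 0.317), -2.12 ± 0.98 for MMP3 (edgeR adjusted p = 0.192), -0.79 ± 0.76 for MMP10 (edgeR adjusted p = 0.566) and -0.29 ± 0.40 for MMP13 (edgeR adjusted p = 0.707). These standard errors are wide because WT cells in DMSO held few counts of them, and a p above the threshold does not show that the genotypes responded alike. For MMP3 the difference passed with DESeq2 (-2.20, DESeq2 adjusted p = 0.0314) and in edgeR without the 3 samples that stood furthest from their groups (-1.93, edgeR adjusted p = 0.0474). MMP9 (0.99 ± 0.90, edgeR adjusted p = 0.532) and TIMP3 (0.04 ± 0.05, edgeR adjusted p = 0.716) did not pass either.

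**Figure D4:**
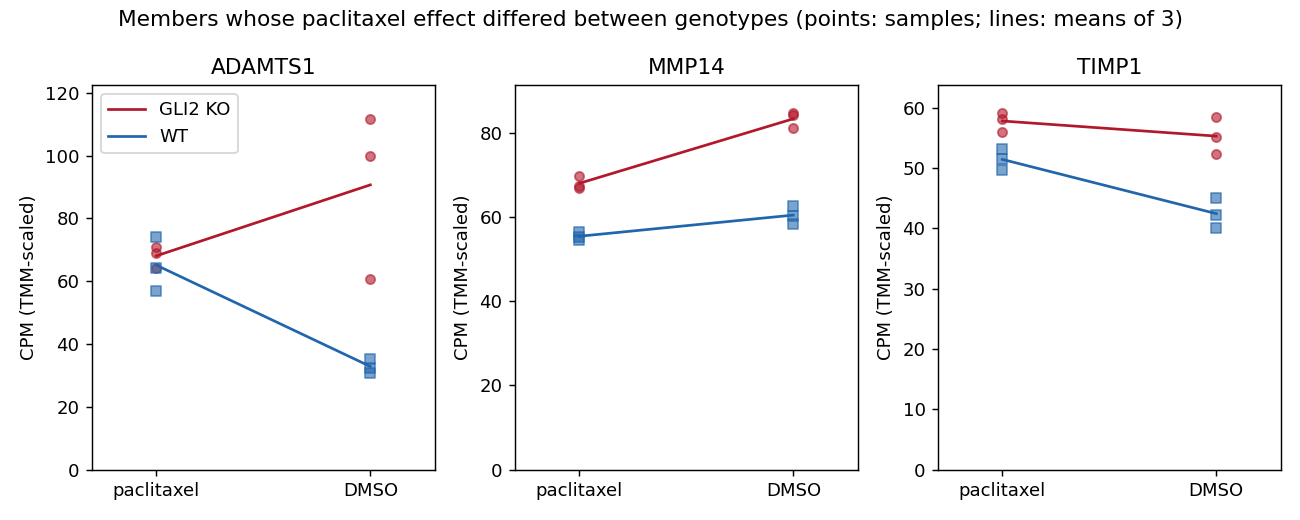
Level in CPM (vertical axis, linear scale) of MMP14, ADAMTS1 and TIMP1 in paclitaxel and in DMSO, with 1 point per sample and a line joining the means of the 3 samples of a genotype. The GLI2 KO and WT lines are not parallel in these 3 genes, and for ADAMTS1 they are close in paclitaxel (68.1 CPM in GLI2 KO and 65.1 CPM in WT cells) and far apart in DMSO (90.7 CPM in GLI2 KO and 32.9 CPM in WT cells).

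The neighbours of the chromosome 11 genes were compared between the genotypes as well. Within 1 Mb on either side 16 genes had a row, members included. MMP8, a neutrophil collagenase next to MMP10 that is named here after its values were seen, had 40, 54 and 52 counts in GLI2 KO cells in paclitaxel, against 3, 5 and 1 in WT cells in paclitaxel, and 0, 0 and 1 counts in GLI2 KO cells in DMSO, against 0 counts in all 3 WT samples in DMSO. In paclitaxel the ratio was 15.4 (exact 95% interval 7.91 to 34.4). MMP8 thus had more than 3 summed counts in the paclitaxel groups alone, unlike the 4 members beside it. WTAPP1, a pseudogene on the opposite strand that shares 7.61% of the exon bases of MMP1 and 1.56% of those of MMP3, held 36 counts in GLI2 KO cells in paclitaxel, 1 in WT cells in paclitaxel, 4 in GLI2 KO cells in DMSO and 0 in WT cells in DMSO, far fewer than either. TRPC6, a sparse calcium channel gene at the other end of the window, had 13, 14 and 23 counts in GLI2 KO cells in paclitaxel, against 1, 4 and 6 in WT cells in paclitaxel, and 4, 6 and 15 counts in GLI2 KO cells in DMSO, against 1, 0 and 0 in WT cells in DMSO. It was called higher in GLI2 KO cells, with a log2 fold change of 2.07 ± 0.55 in paclitaxel (edgeR adjusted p = 0.00287) and an edgeR adjusted p of 0.000624 in DMSO. Beside MMP8, WTAPP1 and TRPC6, 9 flanking genes were tested. Of these, 6 were higher and 1 lower in GLI2 KO cells in paclitaxel, over a range of log2 fold changes from -0.51 to 1.73, and 5 were higher and 1 lower in DMSO, from -0.49 to 2.07. Over all genes tested 45.6% passed in paclitaxel, 23.4% higher and 22.2% lower, and 41.6% in DMSO, 22.0% higher and 19.6% lower. PDGFD, a growth factor gene near the edge of the window beyond MMP13, was the high end of both ranges among these 9, with 12.1 CPM in GLI2 KO cells against 3.65 CPM in WT cells in paclitaxel, and 13.8 CPM in GLI2 KO cells against 3.32 CPM in WT cells in DMSO. BIRC3, an inhibitor of apoptosis and a target of NF-kB, was the low end. In paclitaxel against DMSO the same 9 genes were 1 higher and 6 lower in GLI2 KO cells and 1 higher and 5 lower in WT cells. In that comparison 65.2% of all genes passed in GLI2 KO cells and 66.7% in WT cells.

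**Figure D5:**
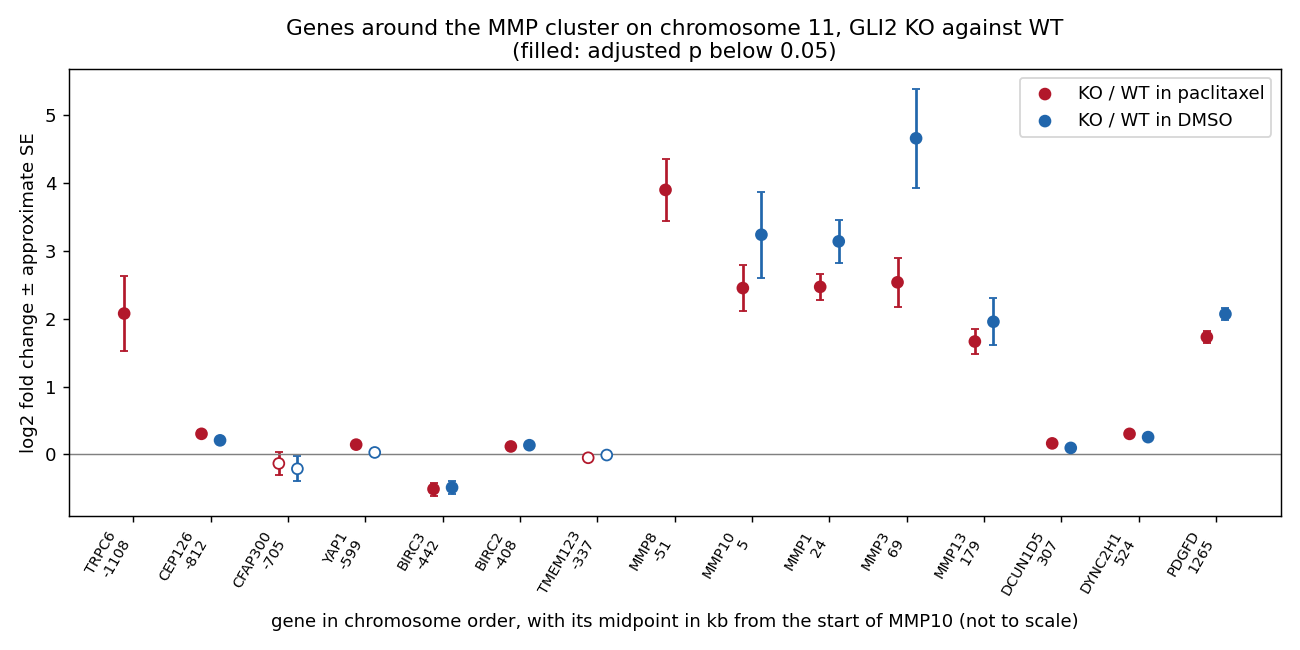
Log2 fold change of GLI2 KO over WT cells in paclitaxel and in DMSO for tested genes within 1 Mb of the chromosome 11 members, in chromosome order (horizontal axis, not to scale, with the distance of each gene's midpoint from the start of MMP10 in kb), with bars of 1 standard error and filled points for adjusted p below 0.05. MMP10, MMP1, MMP3 and MMP13 lie between 1.66 and 4.65 and PDGFD at the far end at 1.73 and 2.07, while the other genes drawn under both treatments lie between -0.51 and 0.30, with BIRC3 the lowest. MMP8 and TRPC6 are drawn in paclitaxel alone, because a DMSO group held 3 counts of them or fewer.

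ADAMTS1 has its own neighbour of the same family, ADAMTS5, an aggrecan-cutting protease whose gene lies 72.5 kb away on chromosome 21 (26917912 to 26966513). ADAMTS5 had 162, 251 and 244 counts in GLI2 KO cells in paclitaxel, against 24, 24 and 40 in WT cells in paclitaxel, and 113, 140 and 121 in GLI2 KO cells in DMSO, against 8, 5 and 11 in WT cells in DMSO. Unlike ADAMTS1 it was separated by genotype under both treatments (log2 fold change 2.83 ± 0.19 in paclitaxel, edgeR adjusted p = 6.17e-12, and 4.04 ± 0.26 in DMSO, edgeR adjusted p = 1.89e-12). Its paclitaxel effect, like that of ADAMTS1, was lower in GLI2 KO than in WT cells, by -1.21 ± 0.38 on the log2 scale (edgeR adjusted p = 0.0338).

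Other genes of the system were taken from lists, whose counts are to be read beside the shares of all genes that passed. By genotype 23.4% of all genes tested were higher and 22.2% lower in GLI2 KO cells in paclitaxel, and 22.0% and 19.6% in DMSO. In paclitaxel against DMSO 33.0% rose and 32.2% fell in GLI2 KO cells, and 34.6% rose and 32.1% fell in WT cells. A list count near these shares says nothing particular about the list. Of 8 other matrix metalloproteases tested, 4 were higher and 1 lower in GLI2 KO cells in paclitaxel, 2 higher and 1 lower in DMSO, and the median log2 fold change was 0.20 in paclitaxel and 0.39 in DMSO (0.19 in DMSO with MMP8 at its bound). MMP16, a membrane-anchored relative of MMP14, was higher by 1.11 ± 0.07 in paclitaxel and 1.18 ± 0.07 in DMSO (edgeR adjusted p = 5.63e-13 and 1.46e-13). MMP11, the secreted stromelysin-like protease, was lower, with log2 fold changes of -0.46 ± 0.15 in paclitaxel and -0.91 ± 0.16 in DMSO (edgeR adjusted p = 0.0182 and 4.9e-05). In paclitaxel against DMSO 4 of the 8 rose in GLI2 KO cells and 5 in WT cells, and none fell. MMP25, a membrane protease known from leukocytes, rose by 4.05 ± 0.21 in GLI2 KO cells and 4.44 ± 0.24 in WT cells (edgeR adjusted p = 2.55e-14 and 4.66e-14). It was scarce in DMSO, with 15, 9 and 11 counts in GLI2 KO cells and 8, 4 and 10 in WT cells. In paclitaxel it had 203, 188 and 285 counts in GLI2 KO cells and 149, 178 and 169 in WT cells. None of the 8 passed the test for a genotype difference in the response to paclitaxel, where 13.5% of all genes passed.

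Of 14 other ADAMTS genes 10 rose and 1 fell in paclitaxel in GLI2 KO cells, and 10 rose and none fell in WT cells. Of all genes 65.2% passed in either direction in GLI2 KO cells and 66.7% in WT cells. By genotype they were mixed, with 6 higher and 3 lower in GLI2 KO cells in paclitaxel and 6 higher and 4 lower in DMSO. Their median log2 fold change was 0.70 and 0.99 for paclitaxel in GLI2 KO and WT cells, and 0.04 and 0.33 for GLI2 KO over WT in paclitaxel and DMSO. ADAMTS9, another proteoglycan-cutting member, rose by 0.76 ± 0.07 in GLI2 KO cells and 1.08 ± 0.07 in WT cells (edgeR adjusted p = 2.31e-10 and 1.03e-12). Of 8 membrane-bound ADAM sheddases 1 rose and 5 fell in paclitaxel in GLI2 KO cells, and 2 rose and 4 fell in WT cells, but with library totals these counts were 1 and 2 in GLI2 KO cells and 4 and 1 in WT cells. By genotype 3 sheddases were higher and 2 lower in GLI2 KO cells in paclitaxel, and 2 higher and 1 lower in DMSO, against 1 and 2 in paclitaxel and 1 and 1 in DMSO with upper-quartile factors.

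The 4 other inhibitors tested were TIMP2, TIMP4, the membrane-anchored RECK and TFPI2, a Kunitz-type inhibitor. TFPI2, like the chromosome 11 members, was highest in GLI2 KO cells in paclitaxel and lowest in WT cells in DMSO. It had 15.7 ± 0.884 CPM in GLI2 KO cells in paclitaxel against 8.60 ± 0.1002 CPM in WT cells in paclitaxel. In DMSO it had 12.2 ± 1.27 CPM in GLI2 KO cells against 4.79 ± 0.267 CPM in WT cells. Its log2 fold change of GLI2 KO over WT was 0.86 ± 0.07 in paclitaxel and 1.35 ± 0.07 in DMSO (edgeR adjusted p = 6.24e-11 and 5.63e-14). TIMP2, TIMP4 and RECK fell in paclitaxel in both genotypes, although only 2 of them did with library totals. RECK fell by 0.64 ± 0.08 on the log2 scale in GLI2 KO cells and by 0.72 ± 0.08 in WT cells (edgeR adjusted p = 1.24e-07 and 1.55e-08), and TIMP2 by 0.30 ± 0.04 in GLI2 KO cells and 0.29 ± 0.04 in WT cells (edgeR adjusted p = 2.2e-07 and 5.67e-07). TIMP2 was higher in GLI2 KO cells by 12.7% in paclitaxel and 14.1% in DMSO (edgeR adjusted p = 0.000594 and 0.000218).

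Of 8 activators and inducers of metalloproteases, 4 were higher and 3 lower in GLI2 KO cells in paclitaxel, and 5 higher and 1 lower in DMSO. In paclitaxel against DMSO 3 rose and 4 fell in GLI2 KO cells and 4 rose and 3 fell in WT cells, while with library totals 4 rose and 3 fell in GLI2 KO cells and 5 rose and 2 fell in WT cells. ST14, a membrane serine protease, rose by 1.25 ± 0.13 in GLI2 KO cells and 0.65 ± 0.13 in WT cells (edgeR adjusted p = 4.8e-09 and 0.000111). PCSK5, a proprotein convertase, was higher in GLI2 KO than in WT cells, by 0.81 ± 0.07 in paclitaxel and 0.96 ± 0.08 in DMSO (edgeR adjusted p = 1.59e-09 and 6.37e-10). FURIN, the convertase that cleaves the precursor of MMP14, rose in paclitaxel by 0.93 ± 0.05 in GLI2 KO cells and 0.65 ± 0.05 in WT cells (edgeR adjusted p = 1.09e-14 and 1.5e-11). PLAU, the urokinase that forms plasmin and so activates several precursors, fell by 0.99 ± 0.04 in GLI2 KO cells and 0.63 ± 0.04 in WT cells (edgeR adjusted p = 4.48e-17 and 1.66e-13).

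Of 14 AP-1 and ETS factors, which bind metalloprotease promoters, 8 rose and 4 fell in paclitaxel in GLI2 KO cells and 8 rose and 3 fell in WT cells, against 9 and 2 in GLI2 KO cells and 11 and 2 in WT cells with library totals. By genotype 4 were higher and 3 lower in GLI2 KO cells in paclitaxel, and 3 higher and 4 lower in DMSO, and the median log2 fold changes were 0.07 in paclitaxel and -0.05 in DMSO. With upper-quartile factors 3 were higher and 5 lower in paclitaxel, and 2 higher and 5 lower in DMSO. FOS rose in paclitaxel, by 3.14 ± 0.22 in GLI2 KO cells and 2.10 ± 0.20 in WT cells (edgeR adjusted p = 1.92e-06 and 1.75e-05), but was lower in GLI2 KO than in WT cells in DMSO (-0.97 ± 0.24, edgeR adjusted p = 0.011). JUN was lower in GLI2 KO than in WT cells in paclitaxel (-0.93 ± 0.12, edgeR adjusted p = 0.000272). ETS1 was higher in GLI2 KO cells under both treatments, by 0.42 ± 0.04 in paclitaxel and 0.36 ± 0.04 in DMSO (edgeR adjusted p = 4.82e-09 and 5.77e-08). Neither FOS nor JUN was called higher in GLI2 KO cells under either treatment. Whether any of these factors had a part in the members' differences was not tested.

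Of 11 matrix proteins that these enzymes cut, 3 were higher and 5 lower in GLI2 KO cells in paclitaxel and likewise 3 and 5 in DMSO. In paclitaxel against DMSO 3 rose and 6 fell in GLI2 KO cells and 4 rose and 4 fell in WT cells, and with library totals 4 rose and 4 fell in GLI2 KO cells and 7 rose and 3 fell in WT cells. THBS1, the matrix glycoprotein thrombospondin, rose by 1.09 ± 0.14 in GLI2 KO cells and 1.65 ± 0.14 in WT cells (edgeR adjusted p = 0.00012 and 6.79e-06). COL1A1, the main chain of the fibrillar collagen of bone, rose by 0.79 ± 0.08 in GLI2 KO cells and 0.29 ± 0.08 in WT cells (edgeR adjusted p = 2.02e-09 and 0.00145).

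Some markers of other cell types moved with some of the members, and others did not. The summed level of 6 haematopoietic and macrophage markers was 2.94 to 3.69 CPM in GLI2 KO cells in paclitaxel, 2.27 to 2.53 in WT cells in paclitaxel, 1.15 to 1.64 in GLI2 KO cells in DMSO and 0.847 to 0.977 in WT cells in DMSO. The leukocyte antigen gene PTPRC among them had 206 summed counts in GLI2 KO cells in paclitaxel, 35 in WT cells in paclitaxel, 70 in GLI2 KO cells in DMSO and 13 in WT cells in DMSO, and none of the 6 was at 0. Not all 6 followed that order. CD14 had 223 summed counts in GLI2 KO cells against 281 in WT cells in paclitaxel, and 124 in GLI2 KO cells against 81 in WT cells in DMSO. ITGAM and CD68 each had 12 summed counts in GLI2 KO cells against 18 in WT cells in DMSO. For 3 osteoclast markers the summed level was 2.56 to 2.97 CPM in GLI2 KO cells and 1.92 to 2.25 in WT cells in paclitaxel. In DMSO it was 1.81 to 2.21 in GLI2 KO cells and 1.75 to 2.14 in WT cells. CTSK made up most of these sums, with group means from 1.53 to 1.81 CPM. ACP5 had 251 summed counts in GLI2 KO against 80 in WT cells in paclitaxel, and 94 against 37 in DMSO. CALCR had 102 in GLI2 KO against 19 in WT cells in paclitaxel, and 4 against 3 in DMSO. Of the 3, 2 were higher in GLI2 KO cells in paclitaxel and 1 in DMSO, and none lower. For 7 fibroblast and osteoblast markers it was 78.0 to 81.0 CPM in GLI2 KO cells in paclitaxel, 70.6 to 72.3 in WT cells in paclitaxel, 57.3 to 60.7 in GLI2 KO cells in DMSO and 58.4 to 63.1 in WT cells in DMSO, with POSTN at 0 counts in GLI2 KO cells in DMSO. For 5 endothelial markers the summed level was 2.92 to 3.23 CPM in GLI2 KO cells in paclitaxel, 4.19 to 4.53 in WT cells in paclitaxel, 1.19 to 1.54 in GLI2 KO cells in DMSO and 2.37 to 3.01 in WT cells in DMSO. KDR made up most of the WT sums, with 2.82 CPM in WT against 0.865 in GLI2 KO cells in paclitaxel. In DMSO KDR had 2.04 CPM in WT against 0.104 in GLI2 KO cells. PECAM1 went the other way, with 0.654 CPM in WT against 1.01 in GLI2 KO cells in paclitaxel. Of 4 endothelial markers tested, 2 were higher and 1 lower in GLI2 KO cells under each treatment. The progesterone receptor gene PGR, which should be low in this line, had 243 summed counts in GLI2 KO cells against 2 in WT cells in paclitaxel. In DMSO PGR had 640 in GLI2 KO cells against 1 in WT cells. Of 4 such luminal markers tested, 4 were higher in GLI2 KO cells in paclitaxel and 3 in DMSO, and none lower. In paclitaxel against DMSO 2 rose and 2 fell in GLI2 KO cells, and 2 rose and 1 fell in WT cells. GATA3 among them rose in both genotypes, while PGR fell in GLI2 KO cells. GATA3 had 7.75 CPM in GLI2 KO against 5.12 in WT cells in paclitaxel, and 5.64 against 3.43 in DMSO. The part of these transcripts in the members' differences was not tested.

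For members with at least 1 CPM in a group, the genes with the most similar pattern over the 12 samples were sought. The measure was the root-mean-square difference of centred log2 levels among 11153 or 11154 candidates. Candidates had a gene symbol and a higher minimum level, which MMP1, MMP3, MMP8, MMP9, MMP10, MMP13 and ADAMTS5 did not reach. These genes were therefore never compared with each other, and the nearest genes given are the nearest among the candidates only. NNMT, nicotinamide N-methyltransferase, was nearest to MMP1 (0.47, where MMP1 itself varied by 1.80) and to MMP3 (0.74, where MMP3 varied by 2.05). NNMT had 10.5 ± 0.286 CPM in GLI2 KO cells in paclitaxel, 1.24 ± 0.194 in WT cells in paclitaxel, 2.82 ± 0.226 in GLI2 KO cells in DMSO and 0.427 ± 0.0420 in WT cells in DMSO. MMP13 was most like the coactivator gene PPARGC1A (0.42), the bone morphogenetic protein gene BMP2 (0.43) and the activin subunit gene INHBA (0.48), where MMP13 varied by 1.53. BMP2 had 7.06 ± 0.128 CPM in GLI2 KO cells in paclitaxel, 2.09 ± 0.0648 in WT cells in paclitaxel, 2.25 ± 0.111 in GLI2 KO cells in DMSO and 0.509 ± 0.0590 in WT cells in DMSO. ADAMTS1 had no close match, as its nearest gene SYBU differed by 0.30 where ADAMTS1 varied by 0.57. TIMP3 was nearest to TLE3 (0.04, where TIMP3 varied by 0.25), MMP14 to LINC03033 (0.04, against 0.22) and TIMP1 to EEIG1 (0.04, against 0.18).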

How the data were processed

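The authors deposited a table of whole-number, unnormalised counts per gene, and a normalized table that was not used here. The tools listed in the submitters' processing notes are STAR, Trim Galore 0.6.7 and DESeq2 1.36.0, and the build is hg38. How genes were counted, with which annotation and strand setting, is not stated in the sources at hand. Per the labels, polyadenylated RNA was extracted with QIAzol. Groups came from the sample titles, and replicates, which carry no number in the titles, were numbered in accession order. The number of columns not used was 0.

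The counts were tested with edgeR 4.0.16 in R 4.3.3 (quasi-likelihood F test, robust, TMM factors, filterByExpr by group with a minimum count of 10), with a mean per group over 12 samples and 8 residual degrees of freedom. The tests were two-sided. Of 25049 genes 21974 (87.7%) were tested, and p-values were adjusted by Benjamini-Hochberg over all of them within each contrast, with calls below 0.05. An approximate standard error was taken as the size of the log2 fold change divided by the square root of F. CPM levels were scaled by TMM factors. With 3 against 3 samples the smallest exact permutation p is 0.1. Count ratios are of summed counts over summed totals, with exact 95% binomial intervals and no TMM factors. Coordinates come from GENCODE 29, which may differ from the annotation used for counting, and sequences from RefSeq (GRCh38.p14). The scripts were tested on simulated data. As alternatives, scaling by RLE, upper-quartile factors or library totals was tried, and also no filter, a minimum count of 50, DESeq2 1.42.0, fits of only the groups compared, no robust dispersion and leaving out each sample. The rule for naming genes other than the members took, per list and contrast, up to 4 that passed with the largest change and at least 1 CPM in a group, and the 3 nearest in pattern to each member. A part of the genes that meet it are named, and a gene named for 1 contrast is also given in others. PTPRC, ITGAM, CD68, POSTN, CTSK, ACP5, CALCR and the genes near the members are named outside the rule, after their values were seen. The members and lists were chosen with earlier results of these data known.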

Additional observations from a re-analysis of the deposited data

Results flagged for a closer look

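The paclitaxel effect differed between GLI2 KO and WT cells, by the test of the difference itself, for 3 members. For ADAMTS1 the difference of log2 fold changes, GLI2 KO minus WT, was -1.40, for TIMP1 it was -0.21 and for MMP14 it was -0.17 (edgeR adjusted p = 0.017, 0.0227 and 0.0177). The largest of the 3 rests on DMSO levels of ADAMTS1 that spread from 60.8 to 112 CPM among the GLI2 KO samples, against 30.8 to 35.4 CPM among the WT samples. Replicate 3, the lowest of the GLI2 KO samples for ADAMTS1, stood apart from its group over all genes as well, and without it the difference was -1.62.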

How the results depend on the processing

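No paired analysis was possible because the labels give no replicate numbers and do not say that the library numbers in the titles mark pairs. A fit that pairs neighbouring library numbers was not run, so spread shared within such pairs, if any, was not taken out. Over the settings other than leaving out single samples, the counts of members passing were 6 to 9 for paclitaxel in WT cells, 6 to 9 for paclitaxel in GLI2 KO cells, 6 or 7 for GLI2 KO over WT in DMSO, 5 or 6 in paclitaxel, and 3 or 4 for the difference. The lowest counts came with a minimum count of 50, which kept 7 of the 9 members. Leaving out 1 sample at a time, the count for the difference ranged from 1 to 3. Of the log2 fold changes under the alternatives, 893 kept their direction and side of the threshold, 11 newly passed, 7 no longer passed and 9 changed sign. MMP14 in paclitaxel in WT cells was 0.0075 with upper-quartile factors and 0.031 with library totals. The others that changed sign had not passed. For GLI2 KO over WT cells in paclitaxel, MMP9 ranged from -0.11 to 0.46, ADAMTS1 from -0.024 to 0.17 and TIMP3 from -0.044 to 0.010 with single samples left out. An alternative chosen after seeing the data, without the 3 samples furthest from their groups, gave -0.11 for MMP9 (edgeR adjusted p = 0.885) in that comparison and -0.0029 for the difference of TIMP3 (edgeR adjusted p = 0.984), and 4 members passed for the difference. Where a sample left out leaves 2 in its group, the spread is shared over all groups. Depth limits MMP3, MMP9 and MMP10 in DMSO, with 10 counts or fewer over 3 WT samples.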
